A study of Mus musculus with 5 samples.

Results

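The 10 genes described here set how the kidney handles phosphate and activates vitamin D. They were chosen by name, for what they are known to do, from the 35478 genes listed in RNA-seq data of mouse kidney. Earlier results of these data were known at that point. All 10 were among the 16394 genes expressed highly enough to be tested. They are the phosphate carriers Slc34a1, Slc34a3, Slc20a1 and Slc20a2, the klotho gene Kl with its partner receptor Fgfr1, the vitamin D enzymes Cyp27b1 and Cyp24a1 with the vitamin D receptor Vdr, and Pth1r, the receptor of parathyroid hormone. Phosphate filtered at the glomerulus is taken back by sodium-coupled carriers in the brush border of the proximal tubule. The bone hormone FGF23, which signals through an FGF receptor bound to klotho, and parathyroid hormone both withdraw these carriers from the membrane. FGF23 lowers and parathyroid hormone raises the synthesis of calcitriol, the active form of vitamin D, which CYP27B1 makes in the proximal tubule and CYP24A1 breaks down.

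The libraries came from male mice aged 7 to 8 weeks at surgery, 1 library per mouse. Their strain is C57BL/6J;129 in the strain field of the labels and C57BL/6J in the sample titles. The 2 control mice were homozygous for a floxed Prdm16 allele without Cre (Prdm16fl/fl, numbered 1 and 3 by the labels), and 3 mice carried the same alleles with Ksp-Cre (Ksp-Cre/Prdm16fl/fl, numbered 1, 2 and 3). They are called control mice and Cre mice from here on. Ksp-Cre is driven by the promoter of Cdh16 (Ksp-cadherin) in tubular epithelium, and the loxP sites flank exon 9 of Prdm16. Unilateral ischemia-reperfusion injury (UIRI) was given to all 5 mice. The left renal vessels were clamped for 35 minutes, the other kidney was taken out on day 10, and the injured one was collected 24 hours later, on day 11. The labels name the kidney and the study's methods name its cortex. Sham-operated mice were not analysed here, so every value describes injured tissue, and the day of surgery is not given in the labels. The study's methods state that controls were littermates, without saying which of these mice shared a litter.

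Counts summed to 15215871 and 14939040 in control mice 1 and 3, and to 16425161, 16111708 and 15470435 in Cre mice 1, 2 and 3. Levels of a gene across mice are given as counts per 1000000 after TMM scaling (CPM), and levels of different genes are compared as TPM, which also divides by gene length. Genotypes were compared with edgeR's quasi-likelihood test over all 16394 genes, and a gene counted as called where its p, adjusted by Benjamini-Hochberg, was under 0.05. Log2 fold changes are Cre over control, with the standard error (SE).

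One library stood apart. Over the tested genes, which are no independent replicates, log2 CPM had a Pearson's r of 0.991 between Cre mice 1 and 2 and 0.989 between the control mice, whereas Cre mouse 3 had an r of 0.957 and 0.960 to its group and of 0.946 and 0.943 to control mice 1 and 3. Each of the 10 genes is therefore given with and without Cre mouse 3.

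Prdm16, the targeted gene, measured 25.28 and 20.02 CPM in control mice 1 and 3. In Cre mice 1, 2 and 3 it measured 17.1, 17.0 and 18.0 CPM. The log2 fold change was -0.38 (SE 0.15, adjusted p = 0.259), which did not pass the threshold. All 3 Cre mice lay below both control mice in CPM but not in TPM, where they measured 4.64, 4.59 and 4.34 against 5.86 and 4.21. The count spans the whole gene in all cells of the tissue and gives no value for exon 9 by itself. Cdh16, whose promoter drives the Cre, was present at 980 and 944 CPM in the control mice and at 868, 890 and 575 CPM in the Cre mice (log2 fold change -0.31, SE 0.22, adjusted p = 0.497).

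Across the 10 genes, 4 had a lower CPM in every Cre mouse than in both control mice, namely Slc34a1, Slc34a3, Kl and Pth1r. Among all genes tested, 21.3% lay below both control mice in this way. Fgfr1 was the 1 gene above both control mice in every Cre mouse, a position held by 20.3% of all genes tested, and in the other 5 genes the groups overlapped. In TPM, where all genes leaned higher in the Cre mice (10.4% below and 39.5% above both control mice), the same 4 genes were below and 3 were above, namely Fgfr1, Slc20a2 and Cyp27b1. With all 5 mice, 0 of the 10 genes were called, where 0.976% of all genes were (0.872% lower and 0.104% higher). The same 4 lower genes had an unadjusted p under 0.05, as did 11.2% of all genes in the lower direction and 7.64% in the higher direction. Without Cre mouse 3, 5 of the 10 genes were called, all lower (Slc34a1, Slc34a3, Kl, Vdr and Pth1r), against 11.0% of all genes called lower and 7.82% called higher in that fit. The median log2 fold change of the 10 genes was -0.18, beside 0.04 for all genes tested. It was -0.39 without Cre mouse 3 (all genes 0.02), 0.01 without Cre mouse 1 (all genes 0.03) and 0.02 with limma on log2(TPM + 1) (all genes 0.21).

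**Figure D1:**
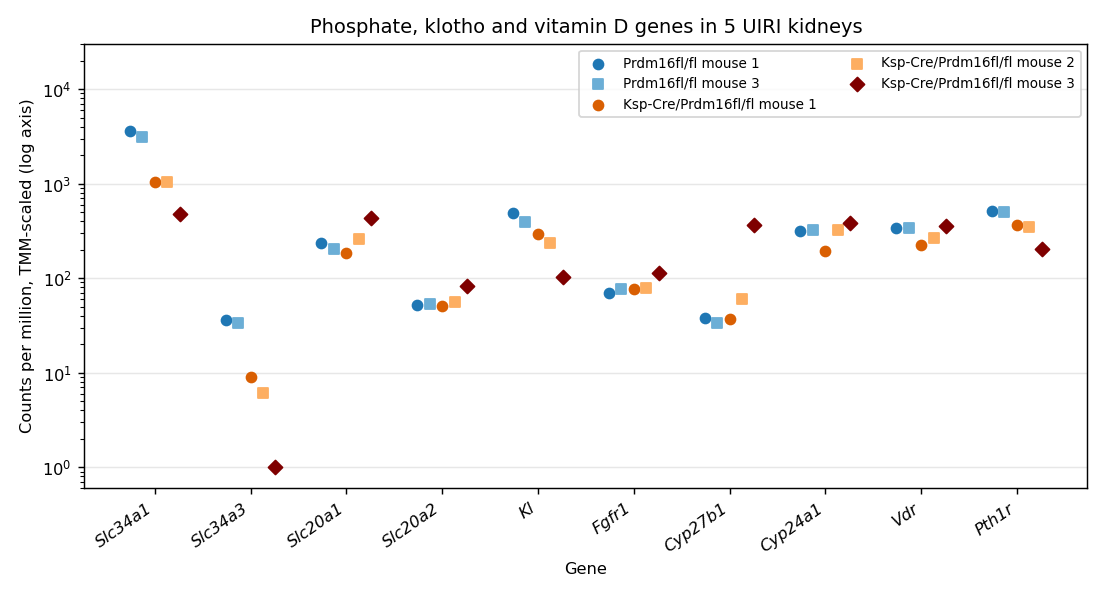
TMM-scaled CPM (log axis) of the 10 genes (x axis), 1 point per mouse, with control (Prdm16fl/fl) mice in blue and Cre (Ksp-Cre/Prdm16fl/fl) mice in orange and dark red. For Slc34a1, Slc34a3, Kl and Pth1r all Cre mice sit below both control mice, and Cre mouse 3 (dark red diamond) is the lowest of all, while for Cyp27b1 it sits far above the other 4 mice.

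Slc34a1 encodes NaPi-IIa, the main sodium-phosphate cotransporter of the proximal tubule brush border. It lies on the plus strand of chromosome 13 from 55547435 to 55562508 in the coordinates of the deposited files, whose build is not named, with 3126 bp of exon. Slc34a3 encodes the related cotransporter NaPi-IIc and is found on chromosome 2 (minus strand, 25118909 to 25124282), with 2262 bp of exon. The 250 bases before the transcription start of both genes are shown because these carriers had the lowest log2 fold changes of the 10 genes. They are from RefSeq (GRCm38.p6), chr13:55399398-55399647 on the plus strand and chr2:25234235-25234484 on the minus strand, 5′ to 3′ in the direction of transcription. Capitals mark the letters GTTAAT, a half-site of the tubular transcription factor HNF1, and AGGTCA, a half-site of nuclear receptors, each searched on both strands.
Slc34a1: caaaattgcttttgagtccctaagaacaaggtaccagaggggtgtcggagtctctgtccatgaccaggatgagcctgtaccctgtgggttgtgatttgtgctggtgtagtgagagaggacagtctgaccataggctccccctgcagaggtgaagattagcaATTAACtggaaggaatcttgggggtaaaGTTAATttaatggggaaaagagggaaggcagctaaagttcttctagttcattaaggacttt
Slc34a3: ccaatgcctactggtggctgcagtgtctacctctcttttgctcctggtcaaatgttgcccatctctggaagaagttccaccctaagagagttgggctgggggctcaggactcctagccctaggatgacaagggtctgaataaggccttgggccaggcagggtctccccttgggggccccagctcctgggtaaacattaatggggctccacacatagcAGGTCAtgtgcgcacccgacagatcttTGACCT
The Slc34a1 window holds GTTAAT on the minus strand, starting 89 bases before the transcription start, and on the plus strand, 61 bases before it. Of 32851 promoter windows of this length, 6.43% held GTTAAT and 0.216% held it in both orientations. The Slc34a3 window holds AGGTCA on the plus strand 33 bases and on the minus strand 6 bases before the start, and 14.0% of windows held this motif. The share with both orientations was computed for GTTAAT only, so the 2 genes cannot be compared by it. The capitals do not overlap each other. Windows were found for 7 of the 10 genes (10 windows, since Slc20a1 and Pth1r have several starts), and Slc20a1 was the other gene with AGGTCA. The letters TATAAA, present in 12.4% of all windows, were not in these 10. A match is a string of letters, and the data hold no measurement of binding there.

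Slc34a1 measured 3579 and 3109 CPM in control mice 1 and 3. In Cre mice 1, 2 and 3 it measured 1041, 1039 and 483 CPM. The groups were far apart, with Cre mice 1 and 2 nearly equal and mouse 3 lower still. The mean was 3344 ± 332 CPM (SD, n = 2) against 854 ± 322 CPM (SD, n = 3), 3.92-fold lower, with a log2 fold change of -1.97 (SE 0.35, 95% interval -2.82 to -1.12). The adjusted p of 0.0598 lay just above the threshold. Slc34a1 was called by DESeq2 (adjusted p = 1.7e-06, where 5.33% of genes were called lower), and by edgeR without a filter on low counts (adjusted p = 0.021, where 1.59% were called lower). In the other fits of all 5 mice the adjusted p lay between 0.057 and 0.15, and it was 0.35 and 0.52 without control mouse 1 or 3 and 0.15 and 0.18 without Cre mouse 1 or 2. Without Cre mouse 3 the log2 fold change was -1.68 (SE 0.14, adjusted p = 0.00035). By mean TPM it ranked 28th of all genes in the control mice and 179th in the Cre mice. In bulk tissue, fewer cells of a type and less RNA per cell cannot be told apart, here or for any gene below.

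Slc34a3 had the lowest log2 fold change of the 10 genes. It measured 36.5 and 33.4 CPM in control mice 1 and 3 and 8.97, 6.08 and 0.999 CPM in Cre mice 1, 2 and 3, the last from 15 counts. No Cre mouse reached a level near those of the control mice, and mouse 3 was again the lowest. The log2 fold change was -2.69 (SE 0.68, 95% interval -4.35 to -1.04, adjusted p = 0.118). It was -2.21 when Cre mouse 3 was left out (SE 0.18, adjusted p = 0.00038).

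Slc20a1 and Slc20a2 encode PiT-1 and PiT-2, sodium-phosphate carriers of a separate family that are expressed in most tissues. Slc20a1 (chromosome 2, 129038662 to 129053535) measured 237 and 204 CPM in the control mice and 186, 259 and 433 CPM in the Cre mice. Slc20a2 (chromosome 8, 22966716 to 23059632) measured 52.6 and 53.3 CPM in the control mice and 50.9, 55.4 and 81.6 CPM in the Cre mice. In both genes Cre mouse 1 lay below the control mice, mouse 2 slightly above them, and mouse 3 well above. The log2 fold changes were 0.41 for Slc20a1 (SE 0.35, adjusted p = 0.565) and 0.24 for Slc20a2 (SE 0.22, adjusted p = 0.589). When Cre mouse 3 was left out they were 0.02 (95% interval -0.34 to 0.38) and 0.01 (95% interval -0.21 to 0.23). In TPM, Slc20a2 was 31.7, 34.5 and 45.3 in the Cre mice against 28.0 and 25.8 in the control mice (log2 fold change 0.44 with limma on log2(TPM + 1), adjusted p = 0.19), so the part of mouse 3 in that difference depended on the scaling. An exon of Slc20a2 shares 180 bp (4.18% of its exon length) with Smim19 on the other strand, and whether reads were counted by strand is not given in the sources used here.

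Per length, the summed TPM of these 4 carriers was 2765 and 2184 in the control mice and 1002, 1024 and 553 in the Cre mice. Slc34a1 made up 95.03% and 94.82% of that sum in the control mice, and 89.1%, 86.9% and 66.7% in the Cre mice. Slc20a1 made up 2.62% and 2.59%, against 6.64%, 9.03% and 24.9%. The share of Slc34a1 was lower and that of Slc20a1 higher in each Cre mouse, most so in mouse 3. A share moves with the whole sum, and in Cre mouse 1 Slc20a1 itself, at 66.6 TPM, lay within the range of the control mice (56.7 and 72.3 TPM). In Cre mouse 3 the TPM ratio of Slc34a1 to Slc20a1 was 2.68 against 36.3 and 36.6 in the control mice and 13.4 and 9.63 in Cre mice 1 and 2. Slc34a3 made up 1.34% and 1.41% of the sum in the control mice, and 1.06%, 0.703% and 0.191% in the Cre mice. These shares are given without a test.

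**Figure D2:**
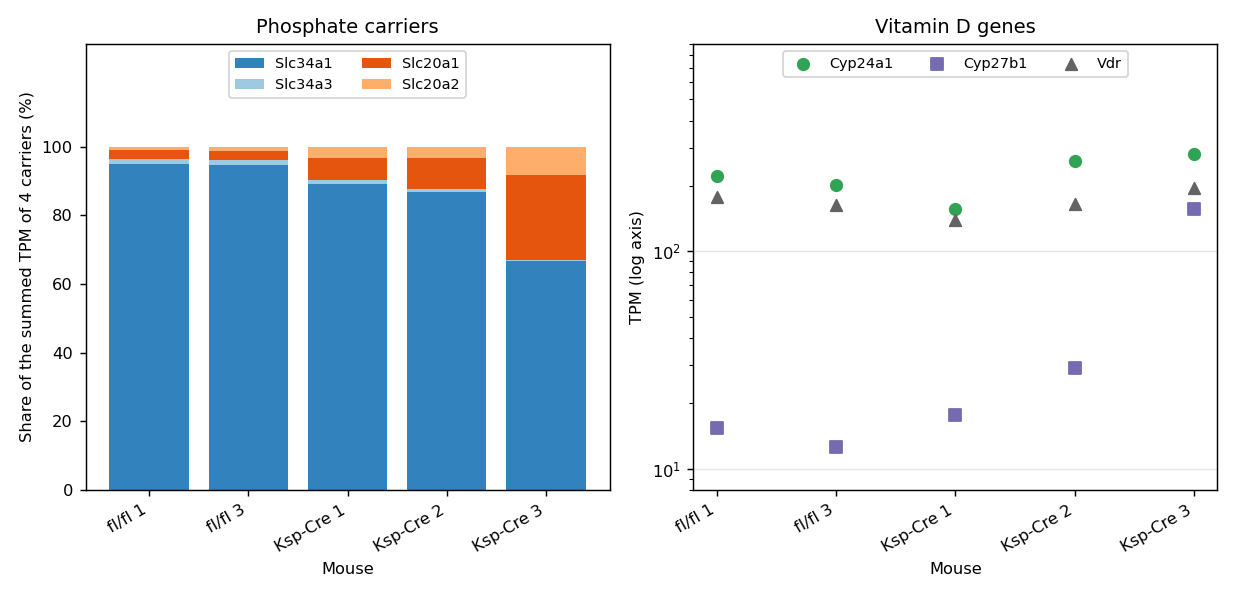
Left, share of each phosphate carrier in the summed TPM of the 4 carriers (%), 1 bar per mouse. Right, TPM (log axis) of Cyp24a1, Cyp27b1 and Vdr, 1 point per gene and mouse. The Slc34a1 share is 95.03% and 94.82% in the control mice and 66.7% in Cre mouse 3, the mouse in which Cyp27b1 reaches 157 TPM.

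Kl encodes klotho, which is made mainly in the distal convoluted tubule and serves as the co-receptor of FGF23. It lies on chromosome 5 from 150876072 to 150917282. Kl measured 485 and 391 CPM in control mice 1 and 3 and 292, 233 and 103 CPM in Cre mice 1, 2 and 3. All Cre mice were below both control mice, with mouse 3 at the lowest level. The mean was 438 ± 66.9 CPM (SD, n = 2) against 210 ± 96.6 CPM (SD, n = 3). The log2 fold change was -1.06 (SE 0.41, 95% interval -2.05 to -0.07), with an unadjusted p of 0.039 and an adjusted p of 0.24 from edgeR. Leaving out Cre mouse 3 gave -0.73 (SE 0.15, adjusted p = 0.014). Kl was not called without Cre mouse 1 or 2 (edgeR, adjusted p = 0.23 and 0.37) or by DESeq2 with all 5 mice (adjusted p = 0.089).

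Fgfr1, an FGF receptor that binds FGF23 together with klotho, lies on chromosome 8 from 26008775 to 26065734. It measured 69.2 and 76.9 CPM in the control mice and 77.5, 78.3 and 114 CPM in the Cre mice. The lowest Cre value was close to the higher control value, and mouse 3 alone stood well above. In TPM all Cre mice were clearly higher, at 41.4, 41.8 and 54.2 against 31.6 and 31.9, a scale on which the median of all genes was also higher in the Cre mice (0.21 on the log2 scale with limma). The log2 fold change was 0.30 (SE 0.20, adjusted p = 0.47), and 0.10 without Cre mouse 3 (95% interval -0.13 to 0.32). The TPM ratio of Kl to Fgfr1 was 6.31 and 4.57 in the control mice and 3.39, 2.68 and 0.816 in the Cre mice, so that in mouse 3 the receptor transcript exceeded that of klotho. Exons of Fgfr1 share 179 bp and 125 bp with 2 predicted genes on the other strand, neither of which exceeded 1.77 CPM in any mouse.

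Cyp27b1 encodes the enzyme that makes calcitriol and lies on chromosome 10 from 126884115 to 126891897. It measured 37.6 and 33.7 CPM in the control mice. In Cre mice 1, 2 and 3 it measured 36.7, 60.5 and 365 CPM. Mouse 1 lay between the control mice, mouse 2 above them, and mouse 3 at a level apart from all other mice. The fitted log2 fold change of 2.11 had an SE of 1.01 and a 95% interval from -0.36 to 4.58 (adjusted p = 0.327), and without Cre mouse 3 it was 0.45 (SE 0.20, adjusted p = 0.16). The size of the difference was thus set by 1 mouse.

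Cyp24a1 encodes the enzyme that inactivates vitamin D metabolites and is itself switched on by the vitamin D receptor. It lies on chromosome 2 from 170324877 to 170339065. Its level was 319 and 322 CPM in the control mice and 194, 321 and 388 CPM in the Cre mice, with mouse 1 below, mouse 2 level with and mouse 3 above the control mice. The log2 fold change was -0.09 (SE 0.29, 95% interval -0.79 to 0.60, adjusted p = 0.889). Its sign depended on the fit, with 0.006 under scaling by library size, 0.09 with limma on log2(TPM + 1), 0.15 without Cre mouse 1 and -0.32 without Cre mouse 3. An exon of Cyp24a1 shares 83 bp with Pfdn4 on the other strand. The TPM ratio of Cyp24a1 to Cyp27b1 was 14.3 and 16.1 in the control mice, 8.88 and 8.93 in Cre mice 1 and 2 and 1.79 in Cre mouse 3. All 3 Cre mice had the lower ratio. In TPM, Cyp24a1 itself overlapped between the groups, and Cyp27b1 was above both control mice (15.5 and 12.6 TPM) in each Cre mouse (17.7, 29.1 and 157 TPM).

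Vdr, the nuclear receptor of calcitriol, lies on chromosome 15 from 97752308 to 97806177. It measured 338 and 342 CPM in the control mice and 227, 269 and 357 CPM in the Cre mice. Cre mice 1 and 2 were below the control mice and mouse 3 above them. With all mice the log2 fold change was -0.26 (SE 0.21, adjusted p = 0.54), and without Cre mouse 3 it was -0.46 (SE 0.11, adjusted p = 0.027). Vdr was not called without Cre mouse 1 or 2 (edgeR, adjusted p = 0.8 and 0.73) or by DESeq2 with all mice (adjusted p = 0.65).

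Pth1r encodes the receptor through which parathyroid hormone acts on the proximal tubule and lies on chromosome 9 from 110551132 to 110576213. It measured 518 and 499 CPM in the control mice and 366, 351 and 204 CPM in the Cre mice. The control mice were close to each other, and every Cre mouse was lower, mouse 3 most. The log2 fold change was -0.73 (SE 0.26, 95% interval -1.36 to -0.09), with an unadjusted p of 0.031 and an adjusted p of 0.215 from edgeR. Without Cre mouse 3 it was -0.50 (SE 0.11, adjusted p = 0.014).

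**Figure D3:**
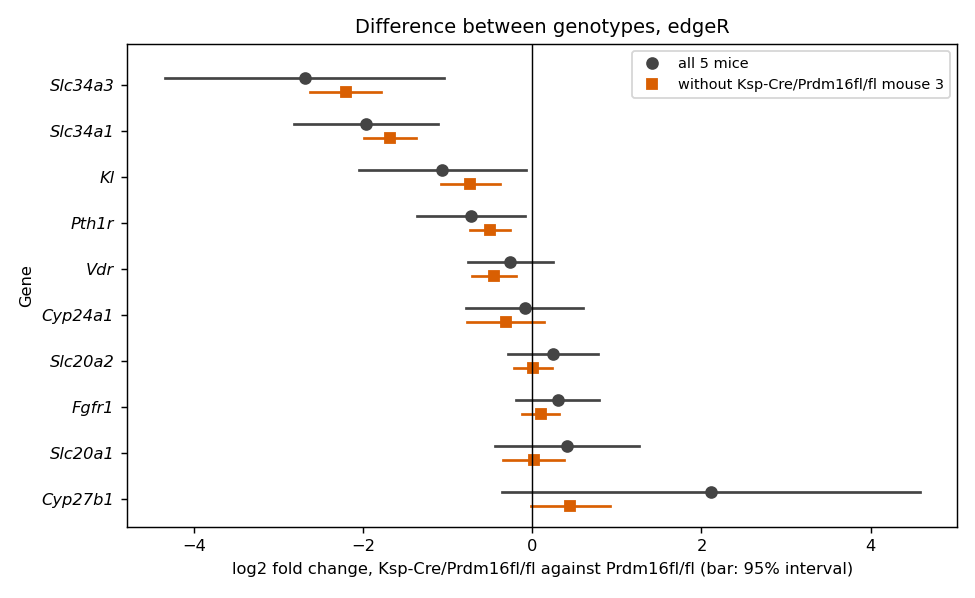
Log2 fold change of the 10 genes between the genotypes (points) with 95% intervals (bars), from edgeR with all 5 mice (grey circles) and without Cre mouse 3 (orange squares). The intervals of Slc34a3, Slc34a1, Kl and Pth1r lie below 0 in both fits. Without Cre mouse 3 the intervals shrink, that of Vdr also lies below 0, and the point of Cyp27b1 moves from 2.11 to 0.45.

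In the control mice the order of levels by mean TPM was Slc34a1 (2349), Pth1r (344), Cyp24a1 (212), Kl (172), Vdr (171), Slc20a1 (64.5), Slc34a3 (33.9), Fgfr1 (31.7), Slc20a2 (26.9) and Cyp27b1 (14.0). The ranges of Kl and Vdr overlapped, as did those of Slc34a3 and Fgfr1, and the other neighbours did not. In the Cre mice Slc34a1 was still first (718 TPM), and Slc34a3 moved to the last place (6.30 TPM). Between them came Pth1r, Cyp24a1, Vdr, Slc20a1, Kl, Cyp27b1, Fgfr1 and Slc20a2, and the range of each overlapped that of the next, except for Vdr (139.6 to 196.2 TPM) and Slc20a1 (66.6 to 137.7 TPM). Kl, up to 140.2 TPM, and Cyp27b1, up to 156.6 TPM, also reached into the range of Vdr.

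The 13989 genes whose log2 CPM averaged 1 or more were compared with Slc34a1 and with Kl by the root mean square difference of log2 CPM, each gene centred on its mean over the 5 libraries. The genes most like Slc34a1 were Cpeb3 (0.126), an RNA-binding protein, Pfn3 (0.129), a profilin, and Pecr (0.171), a peroxisomal reductase. Pfn3 lies on the other strand of chromosome 13 from 55562501 to 55563045 and shares 8 bp of exon with the end of Slc34a1. The genes most like Kl were Prkag3 (0.080), a subunit of AMP-activated kinase, Car12 (0.092), a carbonic anhydrase, and Odc1 (0.108), the ornithine decarboxylase of polyamine synthesis. Odc1 measured 933 and 724 CPM in the control mice and 471, 406 and 164 CPM in the Cre mice. The order of mice was that of Kl, which is no separate result, since Odc1 was picked by this likeness.

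Other genes of the same pathways were listed by function, 62 in all, of which 55 were tested. Of these, 1 was called, lower, where 0.872% of all genes were called lower. At an unadjusted p under 0.05 from edgeR, 10 were lower and 4 higher, where 11.2% and 7.64% of all genes were. Their median log2 fold change was 0.01. With Cre mouse 3 left out, 15 were called lower and 8 higher, against 11.0% and 7.82% of all genes.

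Among 11 apical and scaffold partners of phosphate transport, 0 were called, 4 were lower and 1 higher at an unadjusted p under 0.05 in edgeR, and the median was -0.26. Without Cre mouse 3, 7 were called lower and 1 higher, against 11.0% and 7.82% of all genes. Slc17a3, an organic anion and phosphate carrier of the proximal tubule, measured 514 and 516 CPM in the control mice and 199, 268 and 142 CPM in the Cre mice (log2 fold change -1.34, SE 0.26, adjusted p = 0.0704). Pdzk1, a scaffold that holds NaPi-IIa at the brush border, measured 434 and 399 CPM against 267, 302 and 146 CPM (-0.81, SE 0.30, adjusted p = 0.23). Slc34a2 went the other way. This gene for NaPi-IIb, the cotransporter of gut and lung, measured 26.3 and 38.2 CPM in the control mice and 80.6, 84.2 and 53.9 CPM in the Cre mice (1.18, SE 0.26, adjusted p = 0.0885). Its level was 14.5 and 19.0 TPM against 51.8, 54.0 and 30.9 TPM, above that of Slc34a3 in each Cre mouse and below it in each control mouse. Slc17a3, Pdzk1 and Slc34a2 were called without Cre mouse 3 (edgeR, adjusted p = 0.0019, 0.013 and 0.0013). With all 5 mice DESeq2 called Slc17a3 (adjusted p = 0.00012, where 5.33% of genes were called lower) and Slc34a2 (adjusted p = 0.0014). It did not call Pdzk1 (adjusted p = 0.11).

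Of 14 genes of FGF23 and klotho signalling, 11 were tested, with a median of 0.26. Galnt3, the glycosyltransferase that protects FGF23 from cleavage, was the 1 gene called, at 109 and 111 CPM in the control mice and 69.3, 69.1 and 65.0 CPM in the Cre mice (log2 fold change -0.69, SE 0.10, adjusted p = 0.0485). The groups were well apart and each was tight, but the p lay close to the threshold. The call was lost without either control mouse, without Cre mouse 1 or 2, with upper quartile or library size scaling, with limma on log2(TPM + 1) and with a replicate block. Adam10, a protease that sheds klotho from the cell surface, measured 137 and 152 CPM against 201, 206 and 246 CPM (0.59, SE 0.15, adjusted p = 0.112, and 0.017 with DESeq2). Egr1, an immediate-early gene induced by FGF signalling, varied as much within as between the groups, at 106 and 45.5 CPM against 98.8, 185 and 42.0 CPM (0.52, SE 0.64). Fgf23, Klb and Phex were too low to be tested, Fgf23 with 1 count in Cre mouse 1 and 0 in the others.

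Of 10 genes of parathyroid hormone signalling, 7 were tested, 0 were called, and the median was 0.12. Without Cre mouse 3, 1 was called lower and 0 higher, against 11.0% and 7.82% of all genes. Casr, the calcium-sensing receptor, had a log2 fold change of -0.65 (SE 0.24, unadjusted p = 0.036 from edgeR), with 64.4 and 63.3 CPM in the control mice and 48.1, 46.4 and 27.5 CPM in the Cre mice. Adcy6, an adenylate cyclase, had 0.28 (SE 0.14), and Prkaca, the catalytic subunit of protein kinase A, had -0.23 (SE 0.12). Pth, Pthlh and Pth2r were too low to be tested, and Pth had 0 counts in every mouse. A count of 0 does not show absence, since a single library can miss a transcript with an expected count of up to about 3.

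Of 14 genes of vitamin D supply and receptor partners, 13 were tested and 0 called, with a median of 0.06. Without Cre mouse 3, 2 were called lower and 1 higher, against 11.0% and 7.82% of all genes. The 3 genes with the largest log2 fold changes in size belong to the endocytic receptors that retrieve filtered vitamin D with its binding protein. They were below both control mice in CPM in every Cre mouse, as were 21.3% of all genes, and in TPM this held for Lrp2 and Amn and not for Cubn. Dab2, an adaptor of these receptors, overlapped between the groups (log2 fold change 0.07, SE 0.24). Lrp2 (megalin) measured 927 and 854 CPM against 533, 646 and 279 CPM (log2 fold change -0.87, SE 0.34, unadjusted p = 0.041 from edgeR). Cubn (cubilin) measured 202 and 254 CPM against 150, 181 and 67.6 CPM (-0.78, SE 0.39). Amn, which anchors cubilin, measured 91.6 and 110 CPM against 66.2, 69.0 and 73.8 CPM (-0.54, SE 0.13, adjusted p = 0.107, and 0.037 with DESeq2). Rxrg was too low to be tested.

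Of 13 genes of tubular calcium transport, all were tested and 0 called, with a median of 0.01. Without Cre mouse 3, 2 were called lower and 3 higher, against 11.0% and 7.82% of all genes. S100g, the calcium-binding protein calbindin-D9k and a known target of the vitamin D receptor, measured 611 and 500 CPM in the control mice and 245, 130 and 122 CPM in the Cre mice (log2 fold change -1.75, SE 0.33, adjusted p = 0.0658). Cldn10, a claudin of the tubular tight junction, measured 111 and 155 CPM against 85.2, 85.1 and 57.7 CPM (-0.81, SE 0.23). Trpv5, the apical calcium channel of the distal tubule, measured 43.1 and 30.5 CPM against 90.9, 66.5 and 33.7 CPM (0.79, SE 0.41), with mouse 3 inside the range of the control mice. S100g, Cldn10 and Trpv5 were called without Cre mouse 3 (edgeR, adjusted p = 0.0056, 0.021 and 0.0067). With all 5 mice DESeq2 called S100g (adjusted p = 2.5e-05) and Cldn10 (adjusted p = 0.038), where 5.33% of genes were called lower. It did not call Trpv5 (adjusted p = 0.29).

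Markers of tubule segments were lower in summed CPM in all 3 Cre mice, as were Slc34a1, Slc34a3, Kl and Pth1r. The labelled tissue was kidney, and the proximal tubule and thick ascending limb markers were abundant in every mouse. The 11 proximal tubule markers summed to 7685 and 7783 CPM in the control mice and to 2719, 3259 and 2642 CPM in the Cre mice. All 11 were below both control mice in each Cre mouse in CPM, as were 21.3% of all genes tested. In TPM this held for 10 (not Hnf4a), against 10.4% of all genes. With all mice in the fit, 3 of the 11 were called, all lower, where 0.872% of all genes were called lower. Without Cre mouse 3, 10 of the 11 were called lower, against 11.0% of all genes. The most abundant, Acsm2, went from 2290 and 2072 CPM to 697, 779 and 741 CPM. The CPM of Slc34a1 relative to that sum was 0.466 and 0.400 in the control mice and 0.383, 0.319 and 0.183 in the Cre mice. The markers were not alike in Cre mouse 3. In 7 of the 11 (Slc5a2, Slc5a12, Slc22a8, Slc7a13, Aqp1, Gatm and Miox) it had the lowest level of the Cre mice, as in Slc34a1, and in the other 4, Acsm2 among them, it did not.

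The 5 markers of the distal convoluted tubule, where klotho is made, summed to 1787 and 1196 CPM in the control mice and to 1022, 745 and 493 CPM in the Cre mice. The most abundant, Slc12a3, measured 1472 and 919 CPM against 801, 559 and 183 CPM, and Pvalb had 0 counts in Cre mouse 3. The CPM ratio of Kl to Slc12a3 was 0.330 and 0.426 in the control mice and 0.365, 0.417 and 0.565 in the Cre mice. Over the summed list it was 0.272 and 0.327 in the control mice and 0.286, 0.313 and 0.210 in the Cre mice. Cre mouse 3 was thus the highest against Slc12a3 and the lowest against the list, where Wnk4 alone was higher in it (272 CPM) than in Cre mice 1 and 2 (168 and 141 CPM). Cre mice 1 and 2 lay between the control mice by either measure. The 5 markers of the thick ascending limb summed to 2829 and 3783 CPM against 2643, 2343 and 1245 CPM, led by Umod. Those of principal cells, led by Hsd11b2, summed to 611 and 530 CPM against 491, 304 and 346 CPM, and those of intercalated cells, led by Atp6v0d2, to 305 and 243 CPM against 195, 149 and 151 CPM. All 5 genes of each of these 4 lists had a negative log2 fold change, and 0 were called with all 5 mice. Without Cre mouse 3, 4 distal convoluted tubule, 3 intercalated cell, 2 principal cell and 1 thick ascending limb markers were called lower. In that fit 11.0% of all genes were called lower. In TPM, 1 or 2 of the 5 genes of each list were below both control mice in every Cre mouse, as were 10.4% of all genes, and the others overlapped.

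Markers of tubular injury were higher. The 7 genes summed to 14950 and 15510 CPM in the control mice and to 32020, 32660 and 38000 CPM in the Cre mice, most of it Spp1 (27020, 28060 and 33770 CPM in the Cre mice). Of the 7, 6 were above both control mice in each Cre mouse, in CPM and in TPM, as were 20.3% and 39.5% of all genes tested. Fibroblast and myofibroblast markers, 6 genes led by Col3a1, summed to 378 and 576 CPM against 911, 867 and 617 CPM. Macrophage markers, 6 genes led by C1qa, summed to 400 and 503 CPM against 628, 575 and 461 CPM. Erythroid markers, 5 genes led by Hbb-bs, summed to 6.67 and 10.8 CPM against 151, 150 and 40.5 CPM. With all 5 mice, none of the genes in these 4 lists was called. Without Cre mouse 3, all 7 injury, 4 fibroblast and myofibroblast, 3 macrophage and all 5 erythroid markers were called higher. In that fit 7.82% of all genes were called higher. Podocyte markers (5 genes led by Podxl) summed to 687 and 527 CPM against 383, 392 and 430 CPM. With all mice 1 was called, Nphs1, and without Cre mouse 3, 4 were called lower, against 11.0% of all genes. Endothelial markers (5 genes led by Emcn) summed to 216 and 209 CPM against 194, 165 and 231 CPM, with 0 called, and 1 called lower without Cre mouse 3. Lymphocyte markers (5 genes led by Cd8a) reached at most 30.95 CPM, with Ms4a1 at 0 counts in Cre mouse 3. Bone markers, the tissue that makes FGF23, were near 0, with no more than 7 counts for any of 5 genes. The part of these marker differences in the values of the 10 genes was not tested.

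**Figure D4:**
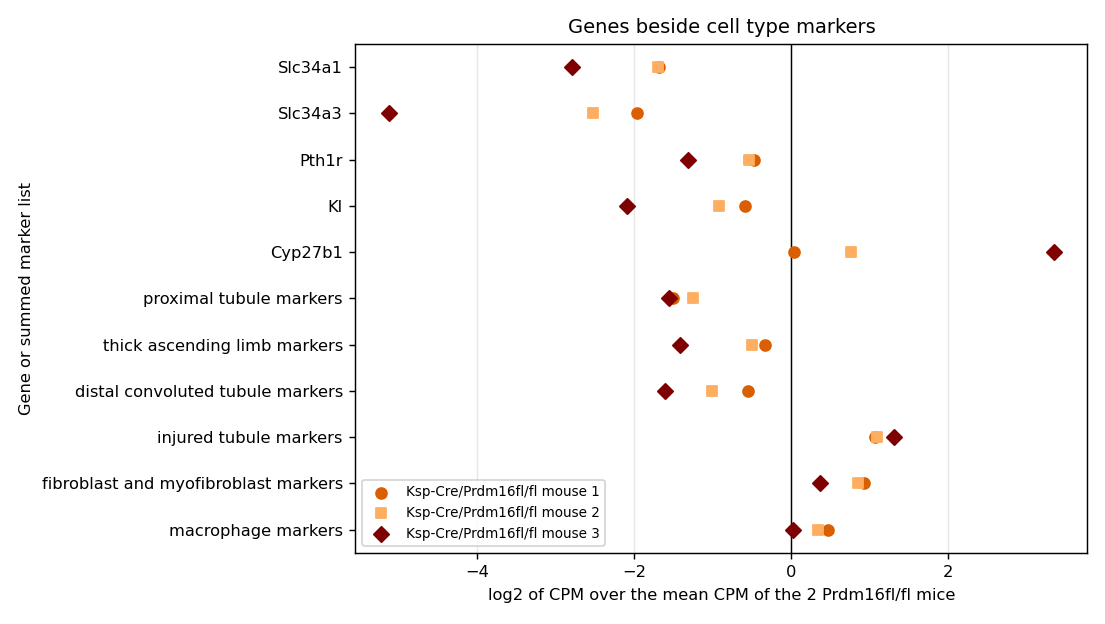
Log2 of the CPM of each Cre mouse over the mean CPM of the 2 control mice, for 5 of the genes and for the summed CPM of 6 marker lists, 1 point per mouse. Proximal tubule markers stand at -1.51, -1.25 and -1.55 in mice 1, 2 and 3, and Slc34a1 at -1.68, -1.69 and -2.79.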

How the data were processed

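The material was RNA-seq of 5 mouse kidneys, 1 library per mouse, and groups follow the genotype in the sample labels. The authors deposited raw read counts per gene, and beside them TPM and FPKM made from the counts, which were recomputed and differed by rounding only. FPKM was not used further. The submitters' processing notes name featureCounts 2.0.1, CASAVA and DESeq2 1.16.1, and the human build hg38 for these mouse samples. The aligner, the annotation and the use of strand are not given in the sources used here. Coordinates in the files differ from GRCm38 and are printed as deposited. The lines of 5 genes, none of them named here, were broken and were rejoined, and Ankh is listed as Ank. Of 35478 genes, 16394 passed filterByExpr.

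Counts were scaled with TMM and tested with edgeR 4.0.16 (glmQLFit and glmQLFTest, no covariates, R 4.3.3), with Benjamini-Hochberg adjustment over all genes tested. No pair of libraries was a duplicate: the chi-square of counts per degree of freedom was at least 9.89. Alternatives were DESeq2 1.42.0, other scalings and filters, a log2 fold change of at least 1, a replicate block, limma 3.58.1 on log2(TPM + 1), and leaving out each mouse. On simulated counts of this design, edgeR found 85% of 100 genes with a log2 change of 1.5 and 99% of 100 with one of 3. Of 16194 genes simulated without a change it called 0.0865%. These counts were drawn independently per library from the fitted dispersions, and the changed genes were taken from those above a minimum mean count. No simulated library stood apart as Cre mouse 3 did, so these shares need not hold for the real mice. Ratios and shares were computed from TPM or CPM in Python 3.11.15 (pandas 2.3.3, matplotlib 3.10.9). Genes named are the 10 genes, Prdm16 and Cdh16, in each pathway list the called genes and the 3 with the largest absolute log2 fold change, each marker list's most abundant gene, and the 3 genes most like Slc34a1 and Kl. Other genes were named after their values were seen. The 10 genes and all lists were chosen with earlier results of these data known.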

Additional observations from a re-analysis of the deposited data

How the results depend on the processing

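Of 130 values of the 10 genes under the alternatives (13 per gene), 120 kept their direction and their side of the threshold, 7 kept the direction and passed it newly, and 3 reversed, all of Cyp24a1, whose log2 fold change was 0.006 under scaling by library size, 0.09 with limma on log2(TPM + 1) and between -0.315 and 0.146 with 1 mouse left out, above 0 without Cre mouse 1. Of the 10 genes, 0 were called in the edgeR test, 1 with DESeq2 and 1 without a filter (Slc34a1 in both), and 0 to 5 when 1 mouse was left out, the 5 without Cre mouse 3. Of the other genes of the pathways, 1 was called, against 8 with DESeq2, 4 without a filter, 0 with upper quartile factors, library size or limma, and 0 to 23 with 1 mouse left out. Of all genes, 160 were called, against 1166 with DESeq2, 471 without a filter, 51 with library size and 45 with limma, and 0 to 3053 with 1 mouse left out (1330 to 5536 at an unadjusted p under 0.05). The count was 0 without any 1 of the other 4 mice and 3053 without Cre mouse 3, where all 160 genes were called again. The share of higher genes among those called was 10.6% in the main test, 26.0% with DESeq2, 27.5% with library size, 44.4% with limma and 41.5% without Cre mouse 3. Scaling by library size moved the median of all genes from 0.04 to 0.15, and limma on TPM to 0.21. Deviations from the group means had a Pearson's r across genes of 0.001 and -0.02 between same-numbered mice. With 2 control mice these deviations mirror each other, so the values cannot show whether the numbers pair the mice. With a replicate block, 0 genes, 0 of the 10 genes and 0 of the other pathway genes were called, with 2061, 4 and 13 at an unadjusted p under 0.05. The cause of these changes was not tested. Groups of 2 and 3 mice limit the precision, and so does depth where counts are low: Slc34a3 in Cre mouse 3 rests on 15 counts, and every other value of the 10 genes on at least 103.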
